A study of Mus musculus with 20 samples.

Results

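The genes described here carry the main steps of MHC class II antigen presentation. The list holds 7 symbols, Cd74, H2-Aa, H2-Ab1, H2-Eb1, H2-DMa, H2-DMb1 and Ciita. It was chosen by name, with earlier results of these data known, and all 7 were found among the 24826 genes of the deposited expression table. The study measured RNA in 10 tissues of wild-type mice given either "sasame oil", called control here, or DHEA (dehydroepiandrosterone, an adrenal steroid that tissues convert to androgens and oestrogens). Each of the 20 groups, 1 tissue under 1 treatment, was 1 library. The values were taken as bulk RNA, as the design text has it, though each sample is also described with the words "10x Genomics". The tissues were heart, kidney, liver, spleen, thymus, lung, intestine, ovary, brain and the organ labelled "Utery", called uterus here. The labels used here give no dose, duration, age or strain, and they do not say how many mice there were or which tissues came from the same mouse.

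MHC class II molecules display peptides from endocytosed proteins to CD4+ T cells. They are made mainly by dendritic cells, B cells and macrophages, and by thymic epithelium, and interferon gamma can induce them in other cells. H2-Aa and H2-Ab1 encode the alpha and beta chains of the I-A molecule, and H2-Eb1 encodes the beta chain of I-E. Cd74 encodes the invariant chain, which assembles with these chains, fills the peptide groove and guides the complex to the endosome. H2-DMa and H2-DMb1 encode chains of H2-DM, which exchanges the remnant of the invariant chain for other peptides. Ciita encodes the coactivator that switches the whole group on, through a protein complex bound to short conserved boxes in each promoter. In bulk tissue, fewer cells of a type and less RNA per cell cannot be told apart.

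The promoter windows of 4 of the 7 genes, H2-Aa, H2-Eb1, H2-DMa and H2-DMb1, were matched in RefSeq (GRCm38.p6) and were searched for the letters of those boxes. Each window ran from 250 bases before to 50 bases after the annotated start. The letters TGATTGG, the core of the Y box that the factor NF-Y binds, were searched on both strands together with the letters AACT in the X box, which the RFX complex binds, with 24 to 25 bases between the pair. The spacing was set after seeing H2-Aa, H2-Eb1 and H2-DMb1. The pair occurred in 24 of 32851 windows (0.0731%), and these held H2-Aa, H2-Eb1, H2-DMb1 and H2-Eb2, a further class II beta chain gene described below. TGATTGG alone occurred in 2568 windows (7.82%), among them those of H2-DMb2, H2-Oa and H2-Ob. Neither window of H2-DMa held TGATTGG on the gene's strand, where 1318 of all windows (4.01%) did. The stretches below are shown because 4 genes of unlike level share them. They are printed 5′ to 3′ on the gene's strand with both sets of letters in capitals. They lie at chr17:34287835-34287916 (minus strand) for H2-Aa, chr17:34305764-34305844 (plus) for H2-Eb1, chr17:34153085-34153166 (plus) for H2-DMb1 and chr17:34325531-34325611 (plus) for H2-Eb2, all upstream of the start.
H2-Aa: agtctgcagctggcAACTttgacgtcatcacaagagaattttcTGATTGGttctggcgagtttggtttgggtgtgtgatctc
H2-Eb1: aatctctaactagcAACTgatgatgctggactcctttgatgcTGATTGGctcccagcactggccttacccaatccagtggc
H2-DMb1: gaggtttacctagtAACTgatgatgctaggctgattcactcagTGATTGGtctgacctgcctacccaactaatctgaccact
H2-Eb2: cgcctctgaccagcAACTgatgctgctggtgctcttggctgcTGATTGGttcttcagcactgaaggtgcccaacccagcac
The first letter of TGATTGG lay 50 bases before the start in H2-Aa, 61 in H2-Eb1, 63 in H2-DMb1 and 102 in H2-Eb2. These matches are letters in a window and say nothing about binding in these tissues.

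The libraries were checked before the members were compared. Of 20 tissue markers, 20 were highest in both libraries of the tissue they mark. Gene levels are FPKM, reads scaled to gene length and to library size, and the whole read counts behind them were recovered from the values. Library totals ran from 13206872 reads (intestine, DHEA) to 20702129 (brain, control). Each fold below has a 95% exact (Clopper-Pearson) interval from those reads. It covers counting error only, because a tissue had 1 library per treatment and no replicate.

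Across tissues the 7 genes followed 1 broad order, with spleen at the top and liver or brain at the bottom. Cd74, the most abundant of them, read 3238 FPKM in control spleen and 2724 in DHEA spleen. It read 768 and 806 in thymus, 570 and 511 in lung, 395 and 709 in intestine, 130 and 346 in uterus, and 130 and 117 in ovary. Kidney gave 150 and 87.0 FPKM, heart 119 and 45.7, liver 59.6 and 36.7, and brain 4.64 and 1.54. Spleen, thymus and brain stood apart from their neighbours in this order, while the pairs of lung and intestine overlapped, as did those of uterus and ovary, ovary and kidney, kidney and heart, and heart and liver. From its lowest to its highest library Cd74 spanned 2104-fold, H2-Aa 2480-fold, H2-Ab1 2029-fold and H2-Eb1 1136-fold. The other members spanned less: H2-DMa 71.9-fold, H2-DMb1 93.9-fold and Ciita 294-fold. H2-DMb1 had another order by mean log2 level, with intestine (44.0 and 18.8 FPKM) and lung (30.9 and 21.9) ahead of thymus (21.0 and 27.3), though these pairs overlap.

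**Figure D1:**
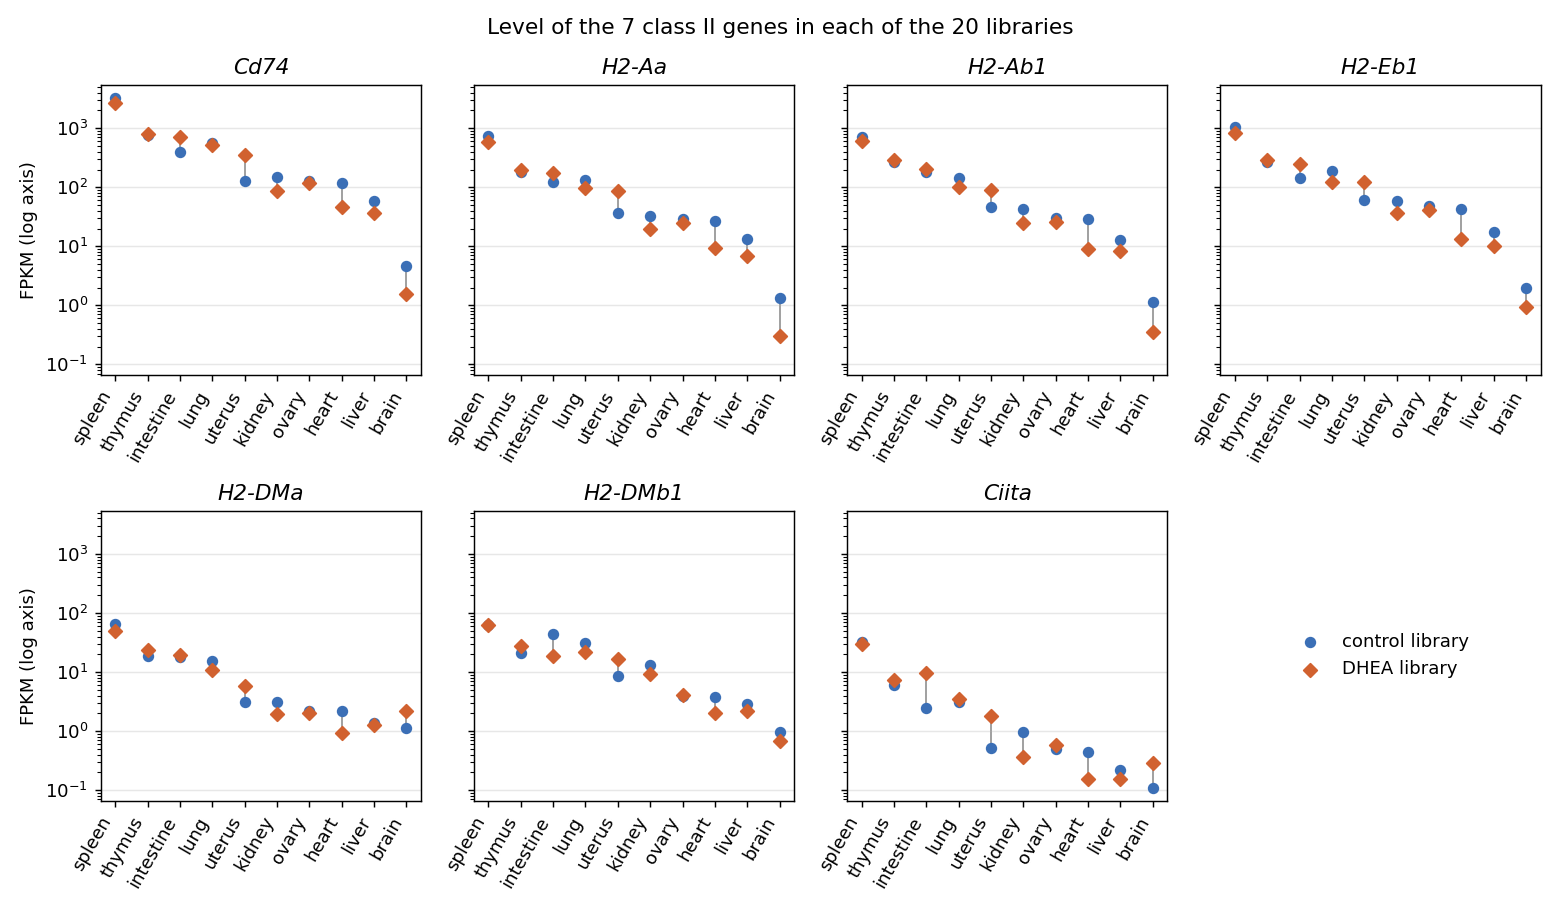
Each panel plots 1 gene. The y axis is FPKM on a log axis, the x axis the 10 tissues, circles are control libraries, diamonds are DHEA libraries, and a grey line joins the pair of a tissue. Spleen holds the highest value of all 7 genes, and the DHEA point lies below the control point in heart, kidney and liver in every panel.

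The proportions of the dimer chains and Cd74 varied far less than their levels, though they were not fixed. The FPKM of H2-Aa was 0.660 to 1.05 times that of H2-Ab1 over the 18 libraries other than brain, with a median of 0.929 over all 20. H2-Eb1 lay at 0.785 to 1.62 times H2-Ab1 and Cd74 at 2.16 to 5.16 times, again without brain. Both low ends were the control intestine, and the DHEA intestine stood at 1.20 and 3.49. FPKM is per length, and the gene lengths implied by the values (3798 bases for H2-Aa, 2568 for H2-Ab1) set these ratios in part. Over the 20 libraries the log2(FPKM + 1) levels of Cd74, H2-Aa, H2-Ab1 and H2-Eb1 correlated at Pearson r of 0.989 to 0.998. H2-DMa correlated with those 4 at 0.851 to 0.892 and H2-DMb1 at 0.928 to 0.954, while Ciita was closest to H2-DMa (0.967). The libraries share tissues in pairs and the genes share cell types, so these are descriptions without a test. Adding 1 FPKM also flattens the low end of Ciita and H2-DMa, whose medians were 0.775 and 3.06 FPKM. Their correlations depend on it in part.

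Ciita, the regulator, had the lowest FPKM of the 7 members in all 20 libraries. It read 32.4 and 30.04 FPKM in control and DHEA spleen and 6.15 and 7.43 in thymus. Intestine read 2.42 and 9.68 FPKM, the DHEA value lying above both thymus libraries, and lung 3.06 and 3.51. In kidney it read 0.962 and 0.361, in heart 0.436 and 0.155, and in liver 0.218 and 0.155. Ovary read 0.494 and 0.587 FPKM, uterus 0.510 and 1.79, and brain 0.110 and 0.284. The liver values rest on 40 and 23 reads. Its ratio to H2-Ab1 ran from 0.0110 in control uterus to 0.04999 in DHEA spleen, leaving out brain.

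The genes most like the members were found by Pearson correlation of log2(FPKM + 1) over the 20 libraries among 14833 genes. For the mean of the members other than Ciita they were Slfn2 (0.966), Irf8 (0.955), Sp100 (0.952), H2-Q4 (0.942), Vasp, Birc3, Ostf1, Trim30a, Cd52 and Igkc. Irf8, a transcription factor of myeloid cells and B cells, was also among the 5 closest to Ciita (0.973), with Gpr18 (0.979), 2010016I18Rik, Gimap7 and Hvcn1. Over the 10 tissue ratios of DHEA to control, the closest of 7249 genes were Ctsc (0.930), Unc93b1 (0.861), Zc3h8 (0.859), Mpeg1 (0.857) and Ctss (0.853). Slfn2, Sco1, Gas7, Ppfibp1 and Gng12 followed (0.842 to 0.831). These are the highest of 7249 correlations over only 10 points each, picked from these same data and not tested. Ctss encodes cathepsin S, the protease that trims the invariant chain, and Unc93b1 carries nucleic acid sensing Toll-like receptors to endosomes.

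Heart, kidney and liver were then set against spleen and thymus, first by level. Every member was lower in all 6 libraries of heart, kidney and liver than in all 4 of spleen and thymus, as were 37.4% of the 13355 genes tested. The highest Cd74 value in the first class was 150 FPKM and the lowest in the second 768. For H2-DMb1, the member with the least room, these were 13.02 and 21.0 FPKM. With tissues as the unit (3 against 2), limma with Benjamini-Hochberg adjustment over all genes called 5 of the 7 members lower, where 5.02% of all genes were. H2-Ab1 differed by -4.52 on the log2(FPKM + 1) scale (SE 0.64, adjusted p = 0.0348) and Cd74 by -4.36 (SE 0.72, adjusted p = 0.0425). H2-Aa (adjusted p = 0.0409), H2-Eb1 (0.0459) and H2-DMa (0.0387) also passed, and H2-DMb1 (0.0814) and Ciita (0.0527) did not. The calls depend on the number of tissues: without heart, kidney, liver or spleen no member passed, and without thymus 4 did. From the control libraries alone, 1 member passed.

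With DHEA, all 7 members read lower than control in each of heart, kidney and liver, 21 values of 21. For comparison, 13.0% of the genes that reached 5 FPKM in all 3 tissues, and 19.6% of those that reached 1 FPKM, were below control in all 3. The 21 values come from 3 pairs of libraries and from genes that share cell types, so they are not independent. The members were also chosen with earlier results of these data known, so these shares describe the values and test nothing. The counting interval of the fold excluded 1 for 18 of the 21 values. The same count was not made over all genes, and the interval covers counting error only. The exceptions were H2-DMa, H2-DMb1 and Ciita in liver, at 68 and 91, 57 and 93, and 23 and 40 reads in DHEA and control. The log2 ratios (with 1 FPKM added) ran from -1.66 for H2-Eb1 in heart to -0.07 for H2-DMa in liver. In heart the median of the 7 was -1.35, in kidney -0.64 and in liver -0.60.

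**Figure D2:**
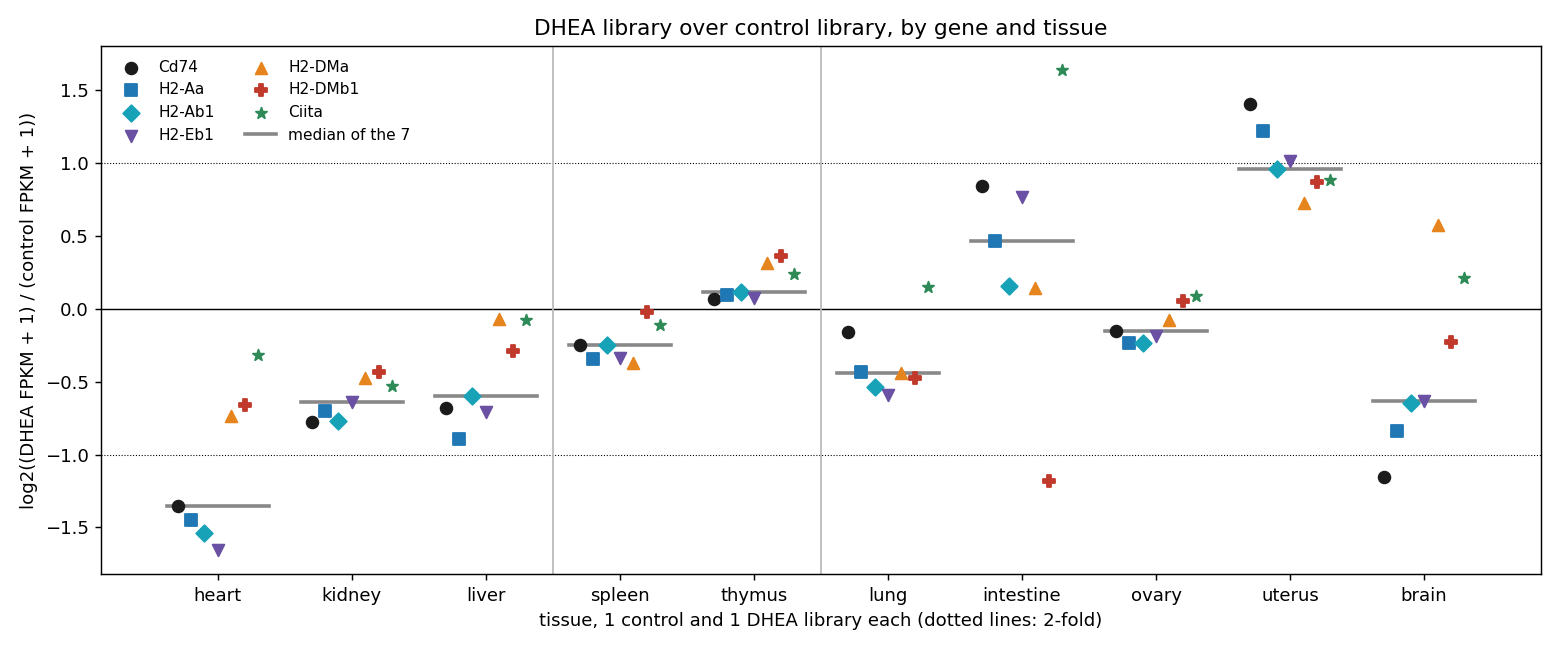
The y axis is the log2 ratio of the DHEA library to the control library with 1 FPKM added, the x axis the 10 tissues, and each symbol is 1 gene. Grey bars are the medians of the 7 genes and dotted lines mark 2-fold. All 7 symbols lie below 0 in heart, kidney, liver and spleen and above 0 in thymus and uterus, though Cd74 in thymus turns to -0.005 when centred on the tissue median.

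Heart had the widest gap of the 3. Cd74 read 119 FPKM in the control heart and 45.7 in the DHEA heart, a fold of 0.386 (interval 0.361 to 0.413). H2-Aa read 27.3 and 9.37 FPKM (0.344-fold), H2-Ab1 28.6 and 9.17 (0.321-fold) and H2-Eb1 43.3 and 13.05 (0.301-fold). These 4 members were at least 2-fold lower at a pair mean of 5 FPKM or more, as were 0.338% of the heart genes (19 of 5620). The other 3 lay under 5 FPKM: H2-DMa read 2.20 and 0.915 FPKM, H2-DMb1 3.79 and 2.03, and Ciita 0.436 and 0.155. In the authors' deposited table, whose columns are scaled differently, the log2 folds in heart were -1.29 for Cd74, -1.46 for H2-Aa, -1.56 for H2-Ab1 and -1.65 for H2-Eb1. That table holds 6 of the 7 members, all but Ciita.

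The heart pair also differed in other genes. Atrial genes, a list added after their values were seen, summed to 356 FPKM in the control heart and 3512 in the DHEA heart, with 7 of 8 at least 2-fold higher and Bmp10 lower (1.25 and 0.0287 FPKM). Myl7, the atrial myosin light chain, read 55.1 and 978 FPKM. The 5 ventricular genes of the same kind summed to 7948 and 7920 FPKM. Macrophage markers summed to 157 and 120 FPKM and pan-leukocyte markers to 44.9 and 29.3, with 9 of 9 and 6 of 6 of the markers at 1 FPKM or more below control. B cell markers summed to 7.41 and 3.06 FPKM, with all 10 detected in both libraries, and dendritic cell markers to 5.98 and 5.07. Besides the 4 members, the 19 lower genes held Ctss, Mpeg1, Igkc, H2-Q6, Alb, Pgc, Hba-a1, Cilp, Ppp1r10, Gm10925 and 5 mitochondrially encoded genes, and the mitochondrial share of reads was 16.1% and 10.7%. The part of the atrial and leukocyte differences in the class II result was not tested.

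Kidney had higher levels of Cd74 and the dimer chains than heart or liver under both treatments, and its members read 0.375 to 0.721 times control with DHEA. Cd74 read 150 and 87.0 FPKM, a fold of 0.580 (interval 0.551 to 0.610). H2-Aa read 33.0 and 19.9 FPKM, H2-Ab1 42.5 and 24.5, H2-Eb1 58.1 and 36.9, H2-DMa 3.06 and 1.92 and H2-DMb1 13.02 and 9.39. Ciita had the lowest fold in kidney, 0.375 (interval 0.270 to 0.514), from 166 and 53 reads. No member passed 2-fold at 5 FPKM, where 0.515% of kidney genes were lower. At 1.5-fold 4 members were lower, as were 2.32% of those genes. Macrophage markers summed to 86.9 and 62.0 FPKM, with 7 of 7 at 1 FPKM or more below control, and pan-leukocyte markers to 28.1 and 19.2. B cell markers summed to 2.24 and 3.37 FPKM, the other way round. The part of these differences in the class II values was not tested.

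In liver the dimer chains and Cd74 were lower and the editing chains and Ciita lay within counting error. Cd74 read 59.6 and 36.7 FPKM, a fold of 0.617 (interval 0.570 to 0.667). H2-Aa read 13.5 and 6.78 FPKM, the lowest fold of the tissue at 0.503 (interval 0.447 to 0.565). H2-Ab1 read 12.9 and 8.21 FPKM and H2-Eb1 17.4 and 10.3. No member passed 2-fold at 5 FPKM, where 2.31% of liver genes were lower. At 1.5-fold 4 members were lower, as were 7.20% of those genes. Macrophage markers did not move the same way: they summed to 254 and 280 FPKM, with 8 of 13 above control. Pan-leukocyte markers summed to 43.3 and 34.5 FPKM and B cell markers to 9.61 and 3.36, and the part of these in the class II values was not tested.

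Tested over the 3 organs, with tissues as the unit, no single gene passed. The fit also held the ratios of spleen and thymus, so its SE and p-values pool the spread within both organ classes. Limma gave Cd74 -0.94 (SE 0.16, unadjusted p = 0.000822), H2-Aa -1.02 (SE 0.17), H2-Ab1 -0.97 (SE 0.19), H2-Eb1 -1.003 (SE 0.21), H2-DMb1 -0.46 (SE 0.12), H2-DMa -0.43 (SE 0.18) and Ciita -0.31 (SE 0.14), on the log2(FPKM + 1) scale. Ciita read under 1 FPKM in every library of the 3 organs and passed the filter only through spleen and thymus. The added 1 FPKM shrinks its estimate: its folds without it were 0.356 in heart, 0.375 in kidney and 0.709 in liver. Over the alternative settings its estimate ran from -0.865 to -0.195. The adjusted p was 0.794 for each of the 7, and limma called 0 of 13355 genes. At an unadjusted p under 0.05 there were 742 genes, and 5 of the 7 members were among the lower ones, which made up 3.80% of all genes. Their median difference was -0.94, beside -0.03 over all genes. Without heart the estimates were smaller: -0.73 for Cd74, -0.80 for H2-Aa, -0.68 for H2-Ab1 and -0.68 for H2-Eb1, with an adjusted p of 0.864 for each.

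Spleen and thymus did not move together. In spleen the members read 0.767 to 0.983 times control: Cd74 3238 and 2724 FPKM, H2-Aa 746 and 587, H2-Ab1 712 and 601, H2-Eb1 1053 and 833, H2-DMa 65.8 and 50.5, H2-DMb1 63.7 and 62.7. The interval held 1 for H2-DMb1 alone of the 7. In thymus all 7 read higher, from 1.05 times for Cd74 to 1.30 times for H2-DMb1 (21.0 and 27.3 FPKM), though the log2 ratio of Cd74 turned to -0.005 when centred on the tissue median. No interval held 1. The depth is high in both organs, so these intervals are narrow and say nothing of the spread between animals. How many of all genes had an interval without 1 was not counted. The median log2 ratio of the 7 was -0.249 in spleen and 0.117 in thymus. Over genes at 5 FPKM or more it was -0.034 and 0.023. Beside the spleen values, B cell markers summed to 2236 and 1683 FPKM with 10 of 10 below control, macrophage markers to 700 and 1402, neutrophil markers to 153 and 1165 and erythroid markers to 211 and 1640. The mitochondrial share of reads in spleen was 2.47% and 0.839%, with 12 of 12 mitochondrially encoded genes at 5 FPKM or more at least 2-fold lower. In thymus the corresponding B cell sums were 52.2 and 51.8 FPKM and those of thymic epithelium 449 and 415, while adipocyte markers summed to 74.1 and 383 FPKM with 6 of 6 at 5 FPKM or more at least 2-fold higher. The part of these differences in the class II values was not tested.

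Over spleen and thymus the same limma fit gave estimates between -0.13 (H2-Eb1) and 0.17 (H2-DMb1), with adjusted p of 0.715 to 0.987. It called 0.00749% of genes lower and 0.0150% higher. No member had an unadjusted p under 0.05, where 2.18% of genes were on the lower side. The difference between the organ classes was -0.85 for Cd74 (SE 0.25), -0.89 for H2-Aa (SE 0.26), -0.91 for H2-Ab1 (SE 0.31), -0.87 for H2-Eb1 (SE 0.34) and -0.63 for H2-DMb1 (SE 0.20). These 5 had an unadjusted p under 0.05, as did 6.59% of genes on the lower side, and their adjusted p was 0.581 to 0.588, where 0.0150% of genes were called lower. H2-DMa (-0.40, adjusted p = 0.667) and Ciita (-0.37, adjusted p = 0.623) did not. For Ciita, shrunk by the added 1 FPKM, the difference ran from -0.943 to -0.198 over the alternative settings. No member passed the test of a difference in response between the organ classes. Without thymus, the difference for H2-DMa was -0.05 in place of -0.40 and that for Ciita -0.198 in place of -0.37. Without heart, H2-Eb1 differed by -0.545 and H2-DMa by -0.241, and without spleen H2-DMa differed by -0.743. The median of the 7 ran from -1.007 to -0.545 with 1 tissue left out.

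**Figure D3:**
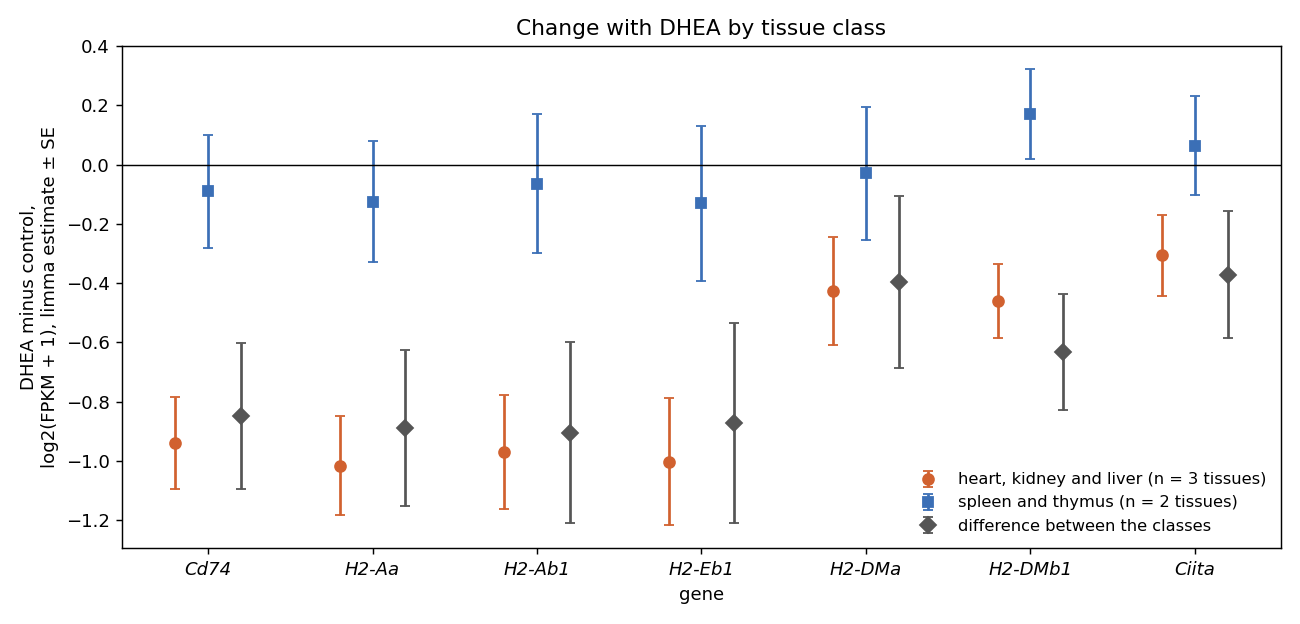
The y axis is the limma estimate of DHEA minus control on the log2(FPKM + 1) scale with its SE as the bar, and the x axis the 7 genes. Circles are heart, kidney and liver, squares spleen and thymus, and diamonds the difference between these classes. The circles of Cd74, H2-Aa, H2-Ab1 and H2-Eb1 lie near -1, and the squares lie between -0.13 and 0.17. No estimate passed an adjusted p of 0.05.

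Over all 10 tissues no member passed an adjusted p of 0.05, and every estimate but that of Ciita lay below 0. Limma with tissue as a block gave -0.22 for Cd74 (SE 0.24, adjusted p = 0.776), -0.33 for H2-Ab1 (SE 0.19, adjusted p = 0.676) and 0.22 for Ciita (SE 0.18, adjusted p = 0.725). It gave -0.31 for H2-Aa, -0.29 for H2-Eb1, -0.20 for H2-DMb1 and -0.04 for H2-DMa, with adjusted p of 0.693 to 0.934. Limma called 0 of 14833 genes, with 1106 at an unadjusted p under 0.05. None of the 7 members was among those 1106, of which the lower ones made up 3.18% of all genes. This rested on uterus: without it H2-Ab1 differed by -0.477 (unadjusted p = 0.00985), H2-Aa by -0.482 (0.0151), H2-DMb1 by -0.32 (0.0382), H2-Eb1 by -0.436 (0.044) and Cd74 by -0.401 (0.0669), with an adjusted p of 0.743 for each of these 5 from limma. Without intestine Ciita differed by 0.061 in place of 0.22 and Cd74 by -0.339, and Cd74 differed by -0.095 without heart and -0.117 without brain. Across the 10 tissue ratios, Cd74, H2-Aa, H2-Ab1 and H2-Eb1 moved closely together (Pearson r 0.934 to 0.977). H2-DMb1 and Ciita did not (r of -0.094), the lowest of the 21 pairs.

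Uterus was the tissue in which the members read most uniformly higher with DHEA. Cd74 read 130 and 346 FPKM, 2.66-fold (interval 2.57 to 2.77). H2-Aa read 37.0 and 87.5 FPKM (2.37-fold), H2-Ab1 46.3 and 91.0 (1.97-fold), H2-Eb1 61.4 and 125 (2.04-fold), H2-DMa 3.06 and 5.71 (1.87-fold) and H2-DMb1 8.72 and 16.7 (1.92-fold). Ciita read 0.510 and 1.79 FPKM, 3.52-fold (interval 2.74 to 4.55). Cd74, H2-Aa and H2-Eb1 were at least 2-fold higher at 5 FPKM or more, as were 7.85% of uterus genes, so many other genes moved as far. Macrophage markers summed to 158 and 544 FPKM with 8 of 9 at 5 FPKM or more at least 2-fold higher, among them Csf1r (9.46 and 36.0 FPKM) and Adgre1 (6.66 and 42.9). B cell markers stayed low, at 1.74 and 6.64 FPKM in sum. Adipocyte markers summed to 1326 and 193 FPKM and the mitochondrial share of reads was 5.79% and 1.45%. The part of these differences in the class II values was not tested.

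In intestine the members did not move together. Ciita read 2.42 and 9.68 FPKM, 3.99-fold (interval 3.54 to 4.51), and was the 1 member at least 2-fold higher, as were 11.0% of intestine genes. Cd74 read 395 and 709 FPKM (1.80-fold) and H2-Eb1 143 and 244 (1.70-fold), while H2-Aa read 125 and 173 (1.38-fold), H2-Ab1 183 and 203 (1.11-fold) and H2-DMa 17.8 and 19.8 (1.11-fold). With ratios centred on the tissue median the log2 ratios of H2-Ab1 and H2-DMa turned to -0.061 and -0.071. H2-DMb1 went the other way, 44.0 and 18.8 FPKM (0.427-fold, interval 0.381 to 0.478), and was at least 2-fold lower, as were 3.38% of genes.

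The class II chains outside the list differed far more in the same pair. H2-DMb2, which encodes a near copy of the H2-DM beta chain, read 0.995 FPKM in control intestine and 60.9 with DHEA, from 26 and 1429 reads (61.2-fold, interval 41.6 to 94.0). Reads of H2-DMb1 and H2-DMb2 may be split between the copies in a way the files do not show, so each is uncertain. H2-DMb2 stood at 0.0226 times H2-DMb1 in control intestine and 3.23 times with DHEA. In spleen the ratio was 3.92 and 3.43. H2-Oa and H2-Ob encode H2-O, an inhibitor of H2-DM found mainly in B cells and thymic epithelium. H2-Oa read 0.190 and 14.97 FPKM (4 and 283 reads), H2-Ob 0.0621 and 20.4 (5 and 1478 reads) and H2-Eb2 0.138 and 25.7 (7 and 1173 reads).

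B cell markers moved with them: their sum was 7.09 FPKM in control intestine and 478 with DHEA, and 9 of 9 at 5 FPKM or more were at least 2-fold higher. Pan-leukocyte markers summed to 48.0 and 320 FPKM, dendritic cell markers to 4.49 and 15.1 and macrophage markers to 76.0 and 127. Of the 10 B cell markers, 3 had 0 reads in the control and all 10 had reads with DHEA. The part of B cell content in the class II values was not tested.

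**Figure D4:**
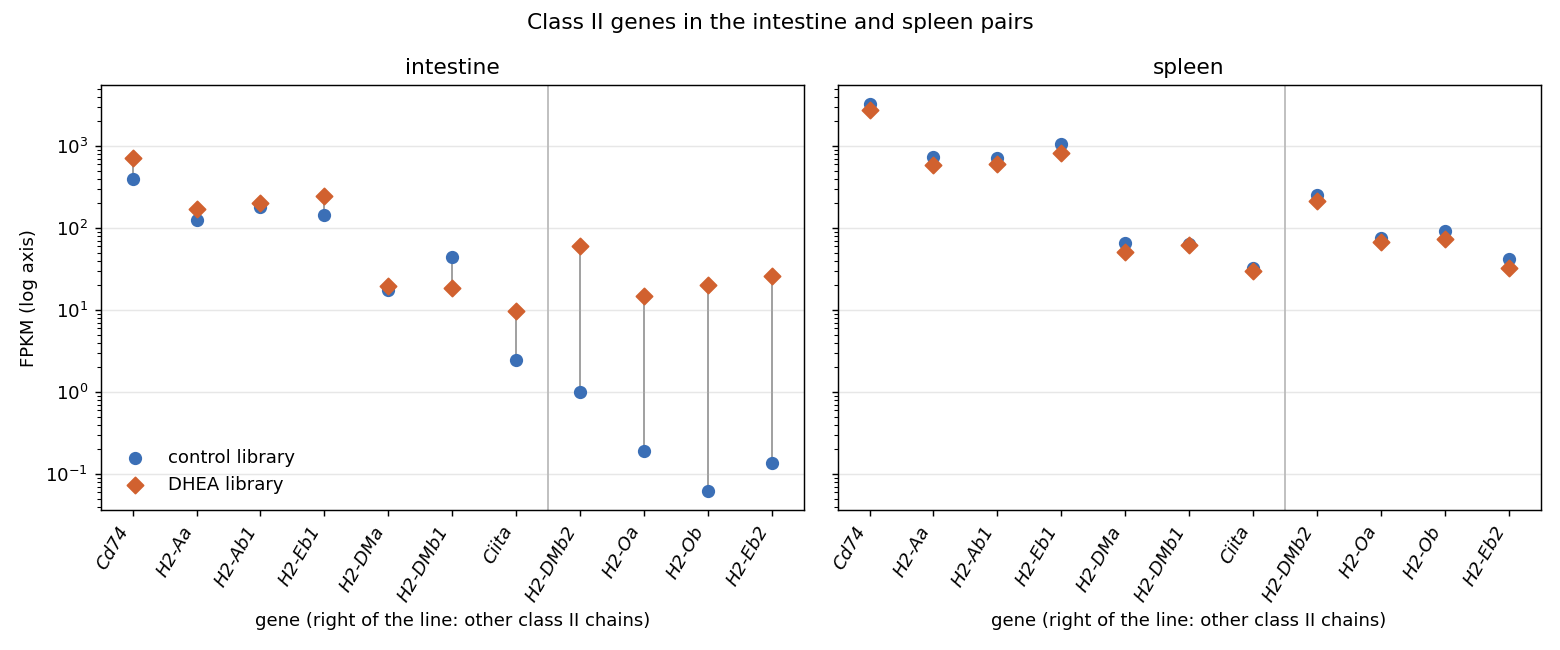
The y axis is FPKM on a log axis and the x axis 11 class II genes, with the 7 listed genes left of the vertical line and 4 other chains right of it. Circles are control and diamonds DHEA libraries. In intestine H2-DMb2, H2-Oa, H2-Ob and H2-Eb2 lie below 1 FPKM in the control and at 14.97 to 60.9 FPKM with DHEA, and in spleen both points of each gene lie close together.

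Lung, ovary and brain completed the set. In lung 6 of 7 members read lower with DHEA, from 0.663 times for H2-Eb1 (188 and 125 FPKM) to 0.897 times for Cd74, and Ciita read 1.15 times. The median log2 ratio of the 7 was -0.442, beside -0.009 over lung genes at 5 FPKM or more. The direction of Cd74 depended on the scaling: its log2 fold in lung was 0.0724 in the authors' deposited table, which is shifted by 0.229 there. With every library scaled to the same FPKM sum its log2 ratio was 0.072 in place of -0.156. Class I presentation genes were below control in 9 of 9 in that pair, while B cell markers summed to 93.0 and 136 FPKM. Neutrophil markers in lung summed to 79.8 and 536 FPKM, with 5 of 5 at least 2-fold higher, and the mitochondrial share of reads was 3.13% and 1.42%. The part of these differences in the class II values was not tested. In ovary the folds ran from 0.846 for H2-Aa to 1.19 for Ciita, and the intervals of H2-DMa, H2-DMb1 and Ciita held 1. In brain every member lay under 5 FPKM: Cd74 had 163 and 43 reads and H2-Aa 105 and 19, against 81 and 124 for H2-DMa.

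The rest of the pathway differed by list in heart, kidney and liver. For comparison, 3.80% of all 13355 genes had an unadjusted p under 0.05 on the lower side in this limma fit. Of the 4 other class II chains 3 had an unadjusted p under 0.05 on the lower side and 0 passed the adjusted test of limma, with a median difference of -0.33. They were rare there: H2-DMb2 read 0.815 and 0.184 FPKM in heart and H2-Ob 0.483 and 0.167 in liver. Of the 4, 0 reached a pair mean of 1 FPKM in heart, kidney or liver. They passed the filter of the fit only through spleen and thymus, where they are high. The added 1 FPKM also shrinks their differences. Of 5 genes of costimulation and class II receptors 3 likewise had an unadjusted p under 0.05, lower, and 0 passed, with a median of -0.37. Of these 5, 0 reached a pair mean of 1 FPKM in heart or kidney and 1 did in liver. They too passed the filter through spleen and thymus. Among 9 genes of class II processing and turnover, 0 passed limma's adjusted p of 0.05 and 1 had an unadjusted p under 0.05, with a median difference of -0.16. Within tissues their median log2 ratio at 1 FPKM or more was -0.042 in heart, 0.023 in kidney and -0.025 in liver. Ctss read 22.7 and 9.86 FPKM in heart and 16.3 and 7.56 in kidney, but 29.4 and 28.3 in liver. Ifi30, a thiol reductase of the endosome, read 6.44 and 3.87 FPKM in heart, 45.4 and 47.6 in kidney and 15.9 and 14.1 in liver. Lgmn, an asparagine protease, read 41.5 and 41.5 FPKM in heart and 27.8 and 36.8 in liver. Of 7 genes for the promoter-bound factors 0 had an unadjusted p under 0.05 in limma, with a median difference of -0.14. Rfx5, a subunit of the RFX complex, read 1.08 and 0.855 FPKM in heart, 3.12 and 2.77 in kidney and 2.55 and 2.08 in liver. Of 11 genes upstream of Ciita 0 did as well, with a median difference of -0.08, beside -0.03 over all genes. Ifng itself had at most 2 reads in each library of those 3 organs.

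Class I presentation and interferon gamma response genes were also mostly lower in these organs. In the same limma fit 3.80% of all genes had an unadjusted p under 0.05 on the lower side. Of 9 class I genes 6 had an unadjusted p under 0.05 on the lower side and none passed the adjusted test, with a median of -0.34. H2-K1, a class I heavy chain, read 80.2 and 41.2 FPKM in heart and 91.8 and 66.0 in kidney. Its partner B2m read 333 and 171 FPKM in heart and 290 and 214 in kidney. In liver H2-K1 read 556 and 479 FPKM. Of 16 interferon gamma response genes 5 had an unadjusted p under 0.05, again all lower, with a median of -0.34 (some genes, Irf1, Socs1 and Nlrc5 among them, are shared with the other lists). Gbp3, a guanylate-binding protein, read 3.76 and 0.785 FPKM in liver and Iigp1, an immunity-related GTPase, 31.2 and 12.2. The list medians stand beside -0.94 for the 7 class II genes and -0.03 over all genes. The lists differ in level and the added 1 FPKM shrinks the ratios of low genes, so the medians do not rank the lists by fold. Of the 16 interferon gamma response genes, 11 reached a pair mean of 1 FPKM in heart, 10 in kidney and 11 in liver.

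**Figure D5:**
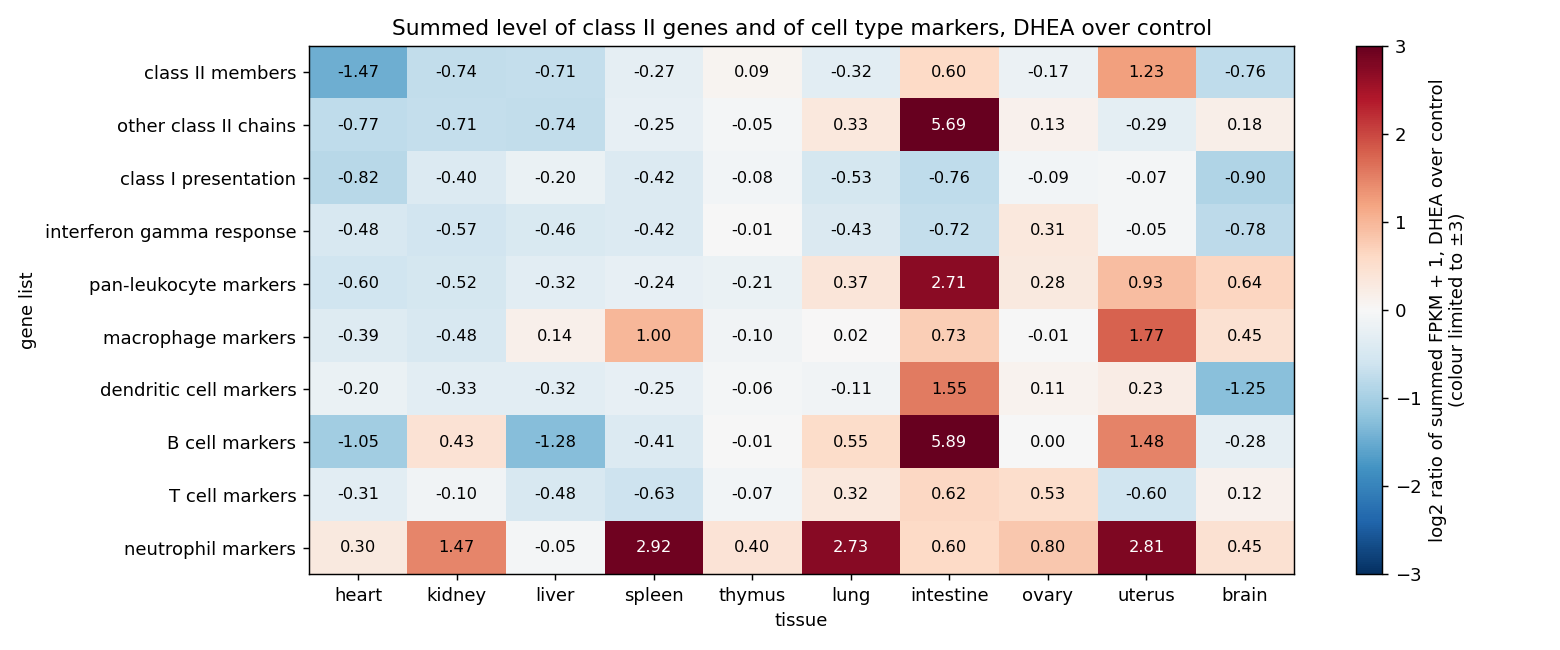
Rows are gene lists and columns tissues, and each cell gives the log2 ratio of the list's summed FPKM plus 1, DHEA over control, with colour limited to 3 in either direction. The class II row runs from -1.47 in heart to 1.23 in uterus. The B cell row reaches 5.89 in intestine, the macrophage row 1.77 in uterus, and the class I row stays at or below -0.07.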

How the data were processed

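Per the submitters' processing notes, HISAT2 2.0.5 was used and the builds mm39 and hg38 are listed. The sources used here name no counting tool, annotation or strand setting. The authors deposited FPKM per gene and library and a second table of log2 fold changes. That table sits at a constant shift from the log2 ratio of FPKM within each tissue, from -0.0686 in kidney to 0.238 in uterus. FPKM values were whole multiples of 1 read in all 24826 genes, within a relative tolerance of 1e-11, so reads were recovered.

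Of 24826 rows, 57 share 28 symbols and were left out of the fits. Levels were tested as log2(FPKM + 1) with limma 3.58.1 (R 4.3.3; lmFit, eBayes with trend), Benjamini-Hochberg adjusted over every gene whose mean over the fitted libraries reached 1 FPKM. In the fits by organ class this mean ran over both classes. A gene rare in heart, kidney and liver could therefore pass through spleen and thymus. The tissue, not the library, was the unit, so p-values measure the spread between tissues. Within a tissue a gene was called at 2-fold (with 1 FPKM added) and a pair mean of 5 FPKM, with no test. The 2-fold counts of marker lists in spleen, thymus and lung have no share of all genes beside them. Nor has the count of higher atrial genes in heart. Intervals used scipy 1.17.1.

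All 7 members were named in every tissue. Of the other genes, those of the class II pathway lists, those with the largest mean log2 ratios over heart, kidney and liver, and the closest by correlation were named. Csf1r, Adgre1, Myl7 and Bmp10, and the other genes at least 2-fold lower in heart, were named after their values were seen. The members and lists were chosen with earlier results of these data known. The scripts were tested on simulated data. With a planted log2 change of 2, limma called 80% of changed genes in heart, kidney and liver and 76% in spleen and thymus. For the difference between the organ classes it called 62%. The simulated spread was capped, so the share in these data may be lower. The members' estimates with DHEA were smaller than 2, so a member that did not pass cannot be taken as unchanged.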

Additional observations from a re-analysis of the deposited data

Results flagged for a closer look

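Cd74, H2-Aa and H2-Eb1 were at least 2-fold higher with DHEA in uterus and at least 2-fold lower in heart. The log2 ratios of the pairs differ by 2.76 for Cd74, 2.67 for H2-Aa and 2.67 for H2-Eb1. Each side is 1 library per treatment, and the difference was not tested.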

How the results depend on the processing

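The members kept their sign under every alternative run in heart, kidney and liver (12 for each of the 7) and in the difference between the organ classes (12), and 0 passed an adjusted p of 0.05 there. The median over the 7 in heart, kidney and liver ran from -1.067 to -0.676 with 1 tissue left out. Spleen and thymus reversed with the organ left out. Without thymus the estimates were -0.249 for Cd74, -0.345 for H2-Aa, -0.245 for H2-Ab1, -0.339 for H2-Eb1, -0.375 for H2-DMa, -0.025 for H2-DMb1 and -0.108 for Ciita. Without spleen they were 0.068, 0.095, 0.117, 0.076, 0.316, 0.366 and 0.237 in the same order. Over 10 tissues H2-DMa turned to 0.02 with every library scaled to the same FPKM sum, and with 1 tissue left out it ran from -0.127 to 0.036. Ciita turned to -0.074 without uterus, intestine, brain and spleen.

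The level difference was the fragile call. With 1 tissue left out its median over the 7 ran from -5.13 to -3.405, the members called from 0 to 4 and the genes called from 0 to 774 (main 716). No member was called with no filter on low values. Rescaling that left out the mitochondrial genes and the top 50 by abundance called 2 members and 365 genes, all 10 tissues in the fit 2 members and 1408 genes, and the control libraries alone 1 member.

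Counts of genes called were small and moved with the settings. In spleen and thymus (main 3) they were 0 with a pseudocount of 0.1 FPKM, 76 with no filter, 5 scaled to the same sum, 6 with all 10 tissues, and 0 to 325 with 1 tissue left out. For the difference between the classes (main 2) they were 1 with that pseudocount, 33 with no filter, 1 at a mean of at least 5 FPKM, 0 after the rescaling and with all 10 tissues, and 0 to 136 with 1 tissue left out. In heart, kidney and liver (main 0) the lower pseudocount gave 1, and over 10 tissues leaving out 1 gave 0 to 1. At 1.5-fold, 4 members were lower in kidney and 4 in liver in place of 0, beside 2.32% and 7.20% of genes. The causes were not tested. Depth limits H2-DMa, H2-DMb1 and Ciita in heart and liver and every member in brain.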
